A study of Mus musculus with 24 samples.

Results

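Suppressors of cytokine signalling, C/EBP transcription factors and the inhibitor of NF-κB are genes that cells switch on in answer to cytokines, and 8 of them were followed through the brains of mice made hypertensive with angiotensin II and treated with human amnion epithelial cells. The 8 genes were Socs1, Socs2, Socs3, Cish, Cebpb, Cebpd, Stat3 and Nfkbia, taken by gene name from a table of 54532 genes, and each name matched 1 row. They were chosen by a rule that used the readout: the study names Socs1, Cish and Cebpb among the genes lowered by angiotensin II, so the values of angiotensin II against vehicle are a description of the mice that chose them. Tests were kept to comparisons that do not rest on that difference. All 8 genes were above 0 in all 24 mice.

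The mice were male WT C57Bl6 animals of 8 to 12 weeks, in 4 groups of 6. The vehicle group received saline through a subcutaneous minipump for 14 days, and the angiotensin II group received angiotensin II, a peptide that narrows blood vessels and raises blood pressure, at 0.7 mg/kg/d in the same way. The vehicle + AEC and angiotensin II + AEC groups had the same infusions and 1000000 human amnion epithelial cells (AECs), cells of the amniotic membrane of term placentae, injected into a tail vein, where mice without AECs were given saline. Poly-A RNA of frozen brain hemispheres was sequenced. The tissue is a mixture of cell types, so fewer cells of a type and less RNA per cell cannot be told apart, and the animals' hypertension is that of an infused peptide over 2 weeks. Littermates were caged together, but the labels do not tie mice to a litter, a cage or a sequencing run.

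Cytokines such as interleukin 6 bind receptors that carry Janus kinases, which phosphorylate STAT proteins, among them the product of Stat3. Phosphorylated STATs enter the nucleus and switch on genes that include the SOCS family and Cish, whose proteins bind the receptors or kinases and damp the signal. Cebpb and Cebpd encode transcription factors of the acute phase response, and Nfkbia encodes IκBα, which holds NF-κB in the cytoplasm and is itself made when NF-κB is active. In the brain this circuit is best known in astrocytes, microglia and endothelial cells that meet inflammatory signals.

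The promoters of 3 members are shown because they hold matches to letters that STATs or NF-κB can bind. Promoter windows of 300 bases, which run from upstream of the RefSeq start to just past it (assembly GRCm38.p6), were at hand for 6 of the 8 members, all but Socs2 and Cebpd. The capitals in the windows of Cish (chr9:107296409-107296708, plus strand) and Socs3 (chr11:117969317-117969616, minus strand) mark TTCNNNGAA, the spacing that STAT dimers bind, and those in Nfkbia (chr12:55492598-55492897, minus strand) mark a κB consensus, read on the opposite strand. Each is written 5′ to 3′.
Cish: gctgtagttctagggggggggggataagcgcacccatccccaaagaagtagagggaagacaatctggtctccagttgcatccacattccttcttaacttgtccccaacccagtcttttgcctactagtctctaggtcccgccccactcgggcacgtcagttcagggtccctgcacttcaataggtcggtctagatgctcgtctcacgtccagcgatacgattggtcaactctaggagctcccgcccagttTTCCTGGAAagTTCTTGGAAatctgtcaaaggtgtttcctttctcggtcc
Socs3: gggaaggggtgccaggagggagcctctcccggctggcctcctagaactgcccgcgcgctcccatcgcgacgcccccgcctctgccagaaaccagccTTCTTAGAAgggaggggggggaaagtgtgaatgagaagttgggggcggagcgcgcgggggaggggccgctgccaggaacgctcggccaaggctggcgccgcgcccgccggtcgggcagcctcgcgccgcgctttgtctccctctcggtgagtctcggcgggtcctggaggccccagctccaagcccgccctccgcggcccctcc
Nfkbia: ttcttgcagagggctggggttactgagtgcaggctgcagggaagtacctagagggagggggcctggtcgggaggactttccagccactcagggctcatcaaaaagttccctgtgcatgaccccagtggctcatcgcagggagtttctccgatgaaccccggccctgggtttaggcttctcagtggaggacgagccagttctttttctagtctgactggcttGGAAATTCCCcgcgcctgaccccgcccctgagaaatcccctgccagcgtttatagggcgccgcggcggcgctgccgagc
Counting the RefSeq start base as 1, the Cish window had a pair of STAT motifs, TTCCTGGAA at 1 to 9 and TTCTTGGAA at 12 to 20, and the Socs3 window had 1, TTCTTAGAA at -154 to -146. Both strands were searched, and TTCNNNGAA was in 2 of the 6 members' windows and in 8.30% of 32851 windows of all genes. The κB motif GGAAATTCCC lay at -29 to -20 of Nfkbia, 1 of 6 windows against 8.46% of all. The letters TTGCNNAA, a C/EBP motif, and TGACGTCA, the cyclic AMP response element, were in 0 of the 6 windows, against 10.8% and 1.79% of all windows. These matches describe letters in a window and no binding was measured here.

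The level of a gene is given as FPKM, the fragments on a gene divided by its length and by the size of the library, which can be compared between genes. Over the 24 mice Nfkbia was the most abundant member at 12.2 ± 2.27 FPKM (SD, n = 24) and Stat3 followed at 5.89 ± 0.424. Cebpb stood at 3.55 ± 0.740, Cebpd at 1.59 ± 0.356, Socs2 at 1.48 ± 0.320 and Socs3 at 1.39 ± 0.226. The lowest were Cish at 0.873 ± 0.145 and Socs1 at 0.559 ± 0.219. Nfkbia was above Stat3, Stat3 above Cebpb, Cebpb above Cebpd and Socs3 above Cish in 24 of 24 mice, and Cish was above Socs1 in 23 of 24. Cebpd, Socs2 and Socs3 could not be put in order over all mice, since Cebpd exceeded Socs2 in 10 of 24 mice and Socs2 exceeded Socs3 in 14 of 24. Their order differed between the sets of libraries described below. In 18 libraries the medians were 1.61 FPKM for Socs2, 1.47 for Cebpd and 1.34 for Socs3. In the other 6 they were 0.949 for Socs2, 1.65 for Cebpd and 1.30 for Socs3. Socs1 rested on the fewest reads, 16 to 71 per mouse with a median of 28, while Stat3 had 854 to 1373.

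**Figure D1:**
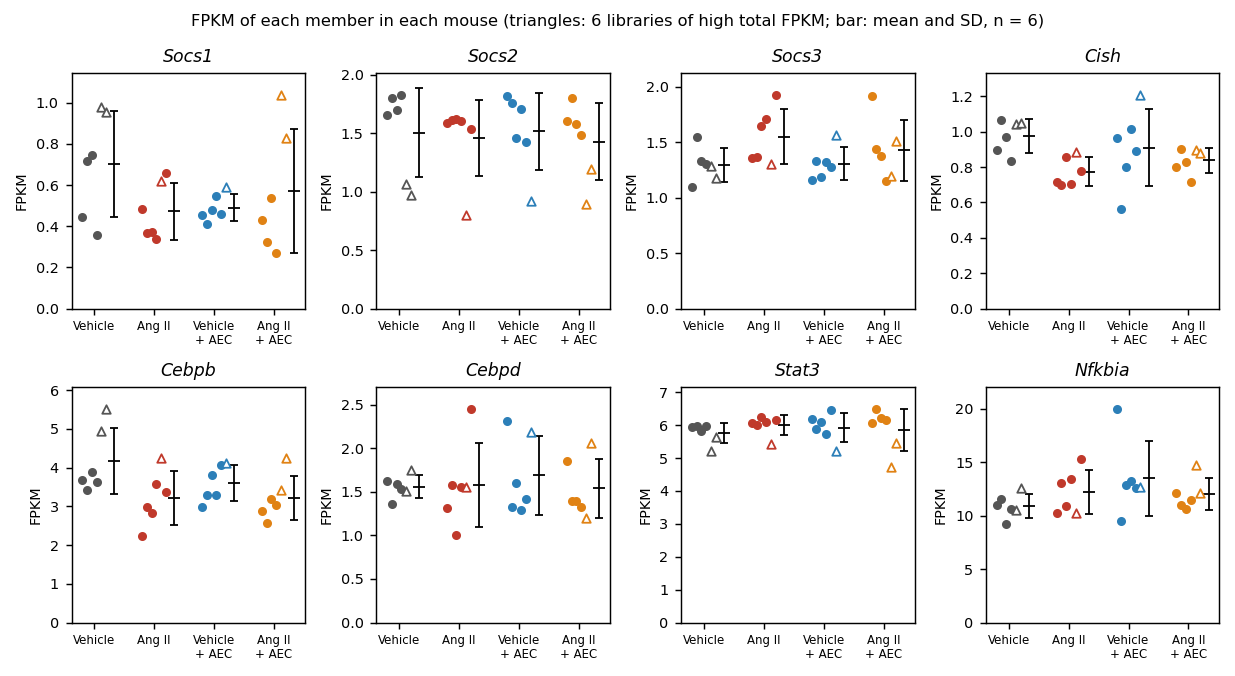
FPKM of each of the 8 genes in each mouse (vertical axes start at 0), by group of 6. Filled points are the 18 libraries of lower total FPKM, open triangles the 6 of high total FPKM, and bars the group mean and SD. In Socs2 and Stat3 the triangles lie below the filled points, and for no gene are any 2 groups fully apart.

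The libraries were not all alike, and this reached several members. FPKM times gene length, divided by a per-read step fitted for each library, gave 16536449 to 25308700 whole reads per mouse. FPKM summed to 338334.5 to 348596.7 in 6 libraries (vehicle replicates 5 and 6, angiotensin II replicate 5, vehicle + AEC replicate 6, angiotensin II + AEC replicates 5 and 6) and to 277115.9 to 298300.6 in the other 18. The labels name no such sets. Mitochondrial genes, whose share can reflect RNA quality, took 6.17% to 6.85% of the reads in the 6 libraries and 4.79% to 5.75% in the 18. Markers of neurons, astrocytes, oligodendrocytes, microglia and endothelium were present in all groups, as the labelled tissue requires, and the 6 libraries had higher summed markers of endothelium (69.8 to 86.7 against 39.9 to 57.3 FPKM, 1 of 3 genes higher on average), of oligodendrocytes (897 to 1118 against 741 to 893, 2 of 3 genes), of meninges (19.7 to 24.2 against 12.5 to 16.1, 5 of 5 genes) and of choroid plexus (840 to 1129 against 357 to 778, 3 of 5 genes). No marker of these lists was at 0 throughout. All other marker lists had sums that overlapped between the sets, among them erythroid genes (5 of 5 higher in the 6 libraries) and neurons (1 of 3). The part of these markers and of the mitochondrial share in the members' values was not tested.

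Socs2, the member linked to growth hormone signalling, showed the library sets most plainly. Its values ran from 0.804 to 1.20 FPKM in the 6 libraries and from 1.42 to 1.83 in the other 18, with no overlap, a difference in mean log2(FPKM + 0.1), with groups as terms, of -0.72 (SE 0.0664). Stat3 was also lower without overlap, at 4.73 to 5.65 against 5.73 to 6.51 FPKM (-0.20, SE 0.0324). Ranges that did not overlap were found in 27.5% of the 27286 genes tested, a share near the 2 of 8 members, and 16.3% of genes were without overlap and lower in the 6 libraries. In the other direction Socs1 was higher by 0.70 (SE 0.155), with medians of 0.892 FPKM in the 6 libraries and 0.449 in the 18, Cebpb by 0.42 (SE 0.0795) with medians of 4.25 and 3.30, and Cish by 0.22 (SE 0.0947). Cebpd (0.15, SE 0.141), Socs3 (-0.05, SE 0.0975) and Nfkbia (0.05, SE 0.108) differed by about as much as their errors or less. The sets were seen in these data and are not groups of the study, so the differences are given without a test.

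The GC content of the members moved with this difference. Socs2, the lowest in the 6 libraries, had the lowest GC content of its longest transcript in GENCODE M21, 45.4%, and Cebpb the highest, 67.2%. Socs1 and Socs3 were nearly equal in GC, 58.8% and 58.7%, yet Socs1 differed between the sets and Socs3 did not beyond its error. The remaining members had 51.6% (Cebpd), 52.5% (Stat3), 52.9% (Nfkbia) and 53.1% (Cish). Across 13633 of the 13649 genes with a mean of at least 1 FPKM, which are not independent replicates, the difference between the sets and GC content had a Pearson r of 0.353. The median difference was -0.33 below 45% GC and 0.44 at 60% or more. The part of GC content in the members' differences was not tested.

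**Figure D2:**
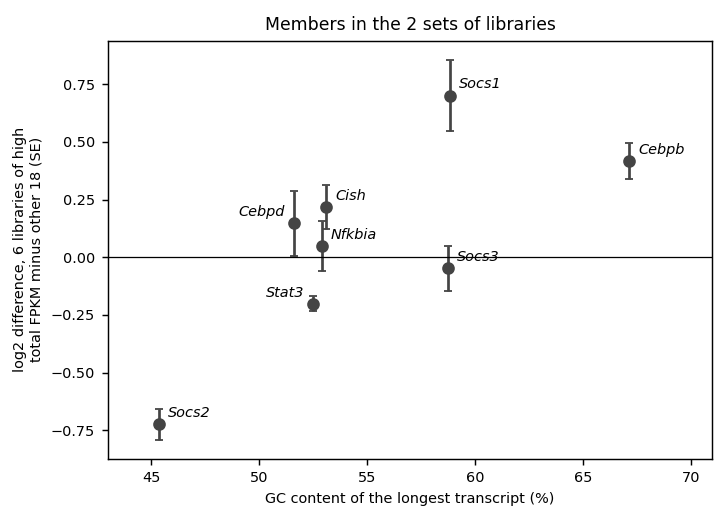
Difference in mean log2(FPKM + 0.1) between the 6 libraries of high total FPKM and the other 18 (vertical axis, bars SE) against the GC content of each gene's longest transcript (horizontal axis, %). Socs2, at 45.4% GC, lies lowest at -0.72, and Socs1 and Cebpb lie highest at 0.70 and 0.42.

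The first question, whether angiotensin II alone changed these genes, was the one that chose 3 of them. The 3 were lower with angiotensin II. Cish, an inhibitor of STAT5 signalling, ranged from 0.832 to 1.06 FPKM around a median of 1.01 with vehicle and from 0.697 to 0.886 around 0.746 with angiotensin II, with 4 of 6 angiotensin II mice below all vehicle mice and all 6 below the vehicle mean. The means were 0.976 ± 0.0945 and 0.772 ± 0.0823 FPKM (SD, n = 6 each), a log2 difference of -0.30 (SE 0.132). Cebpb ranged from 3.41 to 5.53 FPKM (median 3.79) with vehicle and from 2.24 to 4.26 (median 3.17) with angiotensin II, again with 4 of 6 mice below all vehicle mice, and differed by -0.38 (SE 0.145). The 2 highest vehicle mice, at 4.95 and 5.53 FPKM, were both in the set of 6 libraries, as was the highest angiotensin II mouse, at 4.26. Socs1, an inhibitor of the Janus kinases, ranged from 0.356 to 0.981 FPKM (median 0.732) with vehicle and from 0.337 to 0.657 (median 0.427) with angiotensin II, a difference of -0.45 (SE 0.258) in which the groups overlapped widely.

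The other members went both ways. Socs3, the main brake on interleukin 6 signalling, ranged from 1.098 to 1.55 FPKM (median 1.29) with vehicle and from 1.30 to 1.93 (median 1.503) with angiotensin II, a difference of 0.24 (SE 0.123), with all 6 angiotensin II mice above the vehicle mean and 3 of 6 above all vehicle mice. Stat3 differed by 0.06 (SE 0.0697), and 5 of 6 angiotensin II mice, at 6.02 to 6.26 FPKM, lay above the highest vehicle mouse at 5.99. The exception was replicate 5, at 5.43 FPKM, which is in the set of 6 libraries. Nfkbia differed by 0.15 (SE 0.131), Cebpd by -0.03 (SE 0.176) and Socs2 by -0.04 (SE 0.203). In all, 5 of 8 members were lower on average, where 44.6% of all genes tested were lower, and since the rule used this contrast nothing is read from that count.

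The differences of the 3 genes were smaller once the library sets were fitted. In that fit the log2 difference of angiotensin II against vehicle was -0.27 (SE 0.115) for Cish, -0.31 (SE 0.0965) for Cebpb and -0.33 (SE 0.188) for Socs1. It was 0.23 (SE 0.118) for Socs3 and 0.026 (SE 0.0393) for Stat3. For Socs2 it moved away from 0, from -0.04 to -0.16 (SE 0.0806). In the fit without the sets, 1 mouse of the 24 was left out at a time. The difference then ran from -0.34 to -0.28 for Cish, from -0.46 to -0.28 for Cebpb and from -0.60 to -0.35 for Socs1. For Socs3 it ran from 0.18 to 0.29, and for Socs2 from -0.14 to 0.12, so Socs2 kept no direction there. Summed markers of other cells also differed on average in the same comparison, with ranges that overlapped. The summed neutrophil markers were 5.29 to 13.9 FPKM (median 7.01) with vehicle and 6.18 to 23.6 (median 15.7) with angiotensin II, with 6 of 6 genes higher on average, and none was at 0 throughout. Neuronal immediate early genes were 73.6 to 209 FPKM (median 134) with vehicle and 76.1 to 169 (median 120) with angiotensin II, with 0 of 6 higher. These genes were also higher on average in the set of 6 libraries, 6 of 6. The vehicle mice at 209 and 179 FPKM are in that set, as is the angiotensin II mouse at 96.1. Pituitary markers reached 1578 FPKM in angiotensin II replicate 4 and at most 34.2 in any other mouse. Their part in the members' values was not tested.

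The same question could be tested in mice outside the comparison that named Socs1, Cish and Cebpb, the 12 that were also given AECs. The members were chosen with earlier results of these data known. The limma errors came from a fit of all 4 groups, so vehicle and angiotensin II mice set part of them. Exact permutation tests of this comparison used the 12 mice alone. In angiotensin II + AEC against vehicle + AEC none of the 8 genes passed by limma, at an adjusted p of 1 for each, and 0 of 8 had an unadjusted p under 0.05, where 2.66% of the 27286 genes tested had (725 genes, 418 higher and 307 lower). No gene passed at an adjusted p under 0.05, with the lowest at 0.605. The unadjusted count rested in part on 1 mouse, rising to 1247 genes without vehicle + AEC replicate 6. Of the members 6 of 8 were lower on average, against 52.8% of all genes.

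Of the genes that chose the first comparison, Cebpb and Cish were again lower on average, within the spread of the mice. Cebpb ranged from 2.99 to 4.12 FPKM (median 3.56) with vehicle + AEC and from 2.56 to 4.24 (median 3.11) with angiotensin II + AEC, and 5 of 6 of the latter mice lay below the vehicle + AEC mean. The means were 3.60 ± 0.468 and 3.22 ± 0.577 FPKM (SD, n = 6 each), a log2 difference of -0.16 (SE 0.145, 95% interval -0.46 to 0.14, two-sided exact permutation p = 0.223). With the library sets fitted it was -0.23 (SE 0.0965), and in the 18 libraries alone -0.25, both past an unadjusted limma p under 0.05 but not after adjustment, so the call at an unadjusted p depends on how the 6 libraries are treated. Cish ranged from 0.562 to 1.21 FPKM (median 0.929) with vehicle + AEC and from 0.717 to 0.901 (median 0.855) with angiotensin II + AEC. All 6 of the latter lay below the vehicle + AEC mean but inside its range, and the difference was -0.08 (SE 0.132, interval -0.35 to 0.20, exact permutation p = 0.623).

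Socs1 did not keep a direction. It ranged from 0.413 to 0.591 FPKM (median 0.471) with vehicle + AEC and from 0.269 to 1.04 (median 0.485) with angiotensin II + AEC, where the 2 highest mice, at 0.827 and 1.04, were those in the set of 6 libraries and the other 4 ran from 0.269 to 0.538. Its difference was 0.07 (SE 0.258, interval -0.46 to 0.61, exact permutation p = 0.786), and -0.25 in the 18 libraries. The intervals of Cebpb, Cish and Socs1 took in the values those genes had without AECs. Whether the effect of angiotensin II differed between mice with and without AECs was not tested, since that contrast uses the mice that chose the members.

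Socs3 was higher on average here too, though the groups overlapped. It ranged from 1.16 to 1.57 FPKM (median 1.30) with vehicle + AEC and from 1.15 to 1.91 (median 1.40) with angiotensin II + AEC, a log2 difference of 0.11 (SE 0.123, interval -0.15 to 0.36, exact permutation p = 0.400). Socs2 differed by -0.08 (SE 0.203, interval -0.50 to 0.34, exact permutation p = 0.673). Stat3 differed by -0.02 with the narrowest interval of the members, -0.17 to 0.12 (exact permutation p = 0.805). Cebpd differed by -0.12 (interval -0.48 to 0.25, exact permutation p = 0.541).

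Nfkbia was lower on average here, by an amount that rested on 1 mouse. It ranged from 9.53 to 20.0 FPKM (median 12.8) with vehicle + AEC and from 10.7 to 14.8 (median 11.8) with angiotensin II + AEC, a difference of -0.14 (SE 0.131, interval -0.41 to 0.13, exact permutation p = 0.444). The highest value, 20.0 FPKM, was vehicle + AEC replicate 1, and the next in its group was 13.2. Without that mouse the difference was -0.02, and with any 1 mouse left out it ran from -0.23 to -0.02. Summed neutrophil markers in these groups were 6.65 to 14.8 FPKM (median 9.93) and 9.53 to 47.1 (median 18.8), with 6 of 6 genes higher with angiotensin II + AEC. Erythroid markers were 37.5 to 123 (median 70.9) and 41.3 to 169 (median 159), with 5 of 5 higher. Erythroid genes were also 5 of 5 higher in the set of 6 libraries (median sum 162 FPKM against 60.1). That set holds 1 vehicle + AEC mouse and 2 angiotensin II + AEC mice. Angiotensin II + AEC replicates 1 and 4, outside it, were also at 169 FPKM. The part of these markers in the members' values was not tested.

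**Figure D3:**
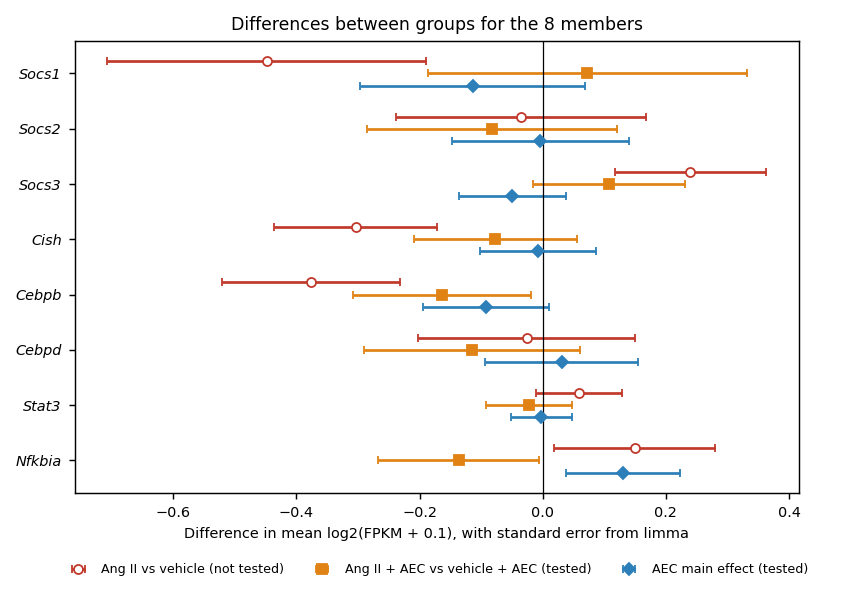
Difference in mean log2(FPKM + 0.1) for each gene (horizontal axis, bars SE from limma). Open circles show angiotensin II against vehicle, the comparison that chose the members and was not tested, squares angiotensin II + AEC against vehicle + AEC, and diamonds all mice with AECs against all without. Circles of Socs1, Cish and Cebpb lie left of 0 at -0.45, -0.30 and -0.38, and their squares lie nearer 0 at 0.07, -0.08 and -0.16.

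The second question was what the injected cells did. The AEC main effect, the mean of both AEC groups less the mean of both groups without, weighs 12 mice against 12 and with equal groups is independent of the difference that chose the members. Again 0 of 8 members had an unadjusted p under 0.05, against 2.44% of all genes (667 genes, 279 higher and 388 lower), and 0 genes passed after adjustment. Nfkbia was 0.13 higher with AECs (SE 0.0925, 95% interval -0.06 to 0.32), and Socs1 was lower by -0.11 on average (SE 0.183, interval -0.49 to 0.26). In the 18 libraries alone they were 0.09 and -0.16, so the order of the 2 is not fixed, and without vehicle + AEC replicate 1 the value of Nfkbia was 0.07. Without 1 angiotensin II + AEC mouse, replicate 5 or replicate 4, that of Socs1 was -0.20 or -0.04. By permutation within infusion (853776 regroupings, all enumerated), the exact two-sided p was 0.203 for Nfkbia and 0.547 for Socs1. The exact p was 0.389 for Cebpb (-0.09), 0.535 for Socs3 (-0.05), 0.801 for Cebpd (0.03), 0.935 for Cish (-0.01), 0.960 for Stat3 (-0.0024) and 0.980 for Socs2 (-0.0037). For Stat3 the interval, -0.10 to 0.10, was the tightest of the 8.

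The 2 simple AEC comparisons use the vehicle and angiotensin II mice that chose the members, and they share those mice with the difference between them, so they are described only. Among mice given angiotensin II, adding AECs went with log2 differences of 0.15 (SE 0.258) in Socs1, 0.11 (SE 0.132) in Cish and 0.01 (SE 0.145) in Cebpb, all within their errors. In the 18 libraries alone Socs1 turned to -0.15 and Cebpb to -0.03, while Cish was 0.10. Cish averaged 0.837 ± 0.0715 FPKM in the angiotensin II + AEC mice, against 0.772 ± 0.0823 with angiotensin II and 0.976 ± 0.0945 with vehicle. Cebpb stood at 3.22 ± 0.577 FPKM with angiotensin II + AEC and 3.21 ± 0.695 with angiotensin II. Among vehicle mice, AECs went with -0.37 (SE 0.258) in Socs1, -0.20 (SE 0.145) in Cebpb and -0.12 (SE 0.132) in Cish, and in the 18 libraries with -0.18, -0.07 and -0.15. The value of Cish was -0.0055 without vehicle + AEC replicate 2. Nfkbia was 0.27 (SE 0.131) higher, with 5 of 6 vehicle + AEC mice, at 12.59 to 20.0 FPKM, above the highest vehicle mouse at 12.57, and the sixth at 9.53. It was 0.15 higher without vehicle + AEC replicate 1.

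Few pairs of members were related from mouse to mouse. Over the 18 libraries outside the set of 6, with group means subtracted, the 28 pairs had Pearson r from -0.60 to 0.74 with a median of 0.11, and 22 were positive. None passed by Pearson's r after Benjamini-Hochberg adjustment over the 28 pairs, and 1 passed by Spearman's rho. That pair was Socs2 and Cebpb, with r = -0.60 (permutation p = 0.00329, adjusted 0.0535) and rho = -0.74 (permutation p = 0.00157, adjusted 0.0440). Its r was -0.49 without the 2 mice farthest from the median of Socs2. These 2 genes also had the lowest and highest GC content of the members, 45.4% and 67.2%. The part of GC content in this pair was not tested. Cebpd and Nfkbia, both induced by glucocorticoids as well as by cytokines, had the highest r, 0.74 (permutation p = 0.00382, adjusted 0.0535), with rho = 0.59 (permutation p = 0.0270, adjusted 0.252), and r fell to 0.48 without the 2 farthest mice, so it rests in part on them. Over all 24 mice, with set means subtracted too, r was -0.31 for Socs2 and Cebpb and 0.51 for Cebpd and Nfkbia, and no pair passed. Without the 2 mice farthest from the median of Socs2 or of Cebpd, these were -0.40 and 0.16.

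**Figure D4:**
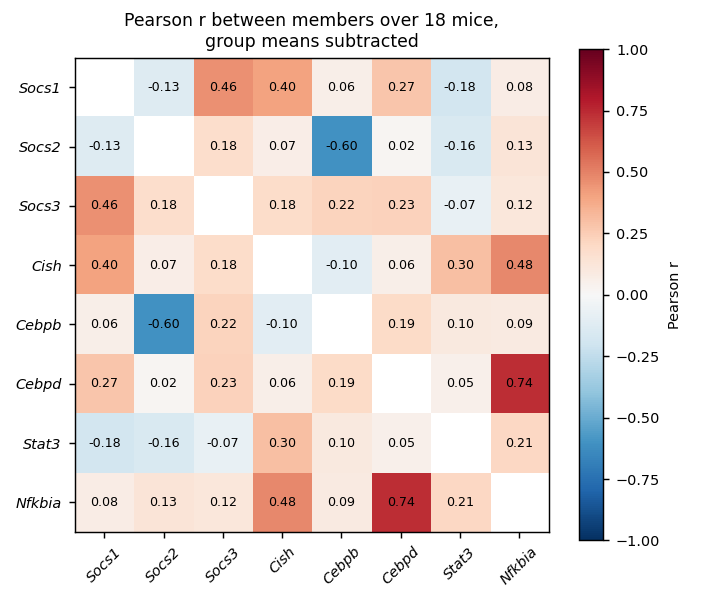
Pearson r between each pair of the 8 genes over 18 mice, with group means subtracted from log2(FPKM + 0.1), from blue (-1) to red (1). Most pairs lie near 0, and Cebpd with Nfkbia (0.74) and Socs2 with Cebpb (-0.60) stand out.

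Over all 24 mice, with group and set means subtracted, the genes most like each member by Pearson r were also named, among those of at least 1 FPKM. Nfkbia had the highest likeness of any member, to Sgk1 (r = 0.83), a kinase induced by glucocorticoids, then Arrdc2 (0.80) and Phyhd1 (0.77). Cish was most like Tmem192 (0.82), Qsox1 (0.76) and 9530062K07Rik (0.75), and Socs1 was most like Grb7 (0.81), Dusp5 (0.80) and Plekhg4 (0.77). For Stat3 they were Gm23645 (0.81), Ism1 (0.75) and Qars (0.74). For Socs2 they were Msrb3, Ick and Gm9821 (each 0.73), for Socs3 Mtg2 (0.72), Dusp19 and Ebna1bp2 (both 0.69), for Cebpb Rab3gap1 and Gm33651 (both 0.72) and Nono (0.71), and for Cebpd Mtmr14 (0.72), Pcnt and Sult1a1 (both 0.71). These are the highest values among 13649 genes over few mice, and none of the 3 likest genes of a member was another member. They were not computed again without outlying mice, such as vehicle + AEC replicate 1, the highest for Nfkbia at 20.0 FPKM. Any part of glucocorticoids in them was not tested.

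Few other genes of the pathway passed an unadjusted threshold. Of 99 further genes in 7 lists (ligands, receptors, Janus kinases and STATs, other negative regulators, C/EBP factors, NF-κB and IκB proteins, and known targets), 96 could be tested, and Ifnb1, Ifng and Il10 were too rarely above 0. With angiotensin II + AEC against vehicle + AEC, 3 of 96 (3.12%) had an unadjusted p under 0.05, close to the share of all genes, and 0 passed after adjustment. They were Stat4, at 0.0669 ± 0.0350 and 0.135 ± 0.0766 FPKM (log2 difference 0.46, SE 0.183), Cebpe, a factor of granulocyte maturation, at 0.0405 ± 0.0505 and 0.117 ± 0.0645 (0.63, SE 0.299), and Nfkb2 at 1.505 ± 0.0758 and 1.27 ± 0.240 (-0.24, SE 0.117). For the AEC main effect it was 2 of 96 (2.08%), Csf3, a granulocyte growth factor below 0.1 FPKM in every group mean (0.48 higher on the log2 scale, SE 0.169), and Stat6 (-0.11, SE 0.0494).

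Ligands were scarce in this tissue. A total of 10 of 19 had a mean under 0.1 FPKM, Il6 among them at 0.0180. The highest were Gh, whose mean of 50.8 rests on the angiotensin II mouse with pituitary markers, and Il4, listed at 12.6 FPKM. Summed T cell markers were only 0.719 to 2.87 FPKM, and what the reads listed under Il4 stand for was not tested. All 20 receptors were at 0.147 FPKM or more, led by Cntfr (38.8) and Ifngr2 (11.9). Jak1 (15.6) and Stat5b (7.64) led the kinases and STATs, Ptpn11 (28.4) and Socs5 (23.1) the other negative regulators, Ddit3 (15.97) and Cebpg (6.46) the C/EBP factors, Nfkbib (13.1) and Rela (11.5) the NF-κB list, and Gfap (75.9) and Pim3 (23.0) the targets. None of these 14 had an unadjusted p under 0.05 in either tested comparison. Gfap, the astrocyte filament gene that rises in reactive astrocytes, was at 70.2 ± 9.80 FPKM with vehicle + AEC and 79.4 ± 18.6 with angiotensin II + AEC (log2 difference 0.16, SE 0.129).

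Some members share ground with genes on the other strand, and whether the reads were counted by strand is not given in the sources used here. In the table's GRCm38 coordinates Cebpb (chr2:167688915-167690418, plus strand) shares 908 bases with Tmem189, at 13.4 FPKM the more abundant of the pair, and reads from the 2 genes there cannot be told apart if strand was not used. The 2 genes had a Pearson r of 0.56 across the 24 mice in log2(FPKM + 0.1) and of -0.12 once group and library set means were subtracted. Tmem189 averaged 13.95 ± 2.61 FPKM with vehicle and 13.1 ± 1.83 with angiotensin II. Like Cebpb, Tmem189 was higher in the set of 6 libraries, at a mean of 17.8 FPKM against 11.97. Cebpd (chr16:15887286-15891031, plus strand) shares 1808 bases with Spidr, at 0.239 FPKM. Cish (chr9:107296026-107302784, plus strand) lies across Gm17040, at 0.0306 FPKM, and Gm17041, listed at 0 in all mice, and Stat3 (chr11:100885098-100939540, minus strand) shares 72 bases with Stat5a. Socs1 (chr16:10782240-10785536), Socs2 (chr10:95385362-95417180), Socs3 (chr11:117966079-117970047) and Nfkbia (chr12:55489410-55492647), all on the minus strand, overlap no other gene of the table.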

How the data were processed

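The authors deposited 1 table of FPKM, made from poly-A RNA-seq reads mapped to the Ensembl mouse genome, with a column for each of 24 mice, and tested genes with DESeq 1.10.1. Which aligner and counter were used, and whether by strand, is not given in the sources used here. Per the file headers the table also holds gene lengths, and coordinates match GRCm38, a build named in the submitters' processing notes. Mice were grouped by the sample labels.

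FPKM multiplied by gene length was divided by a per-read step fitted for each library, begun at its smallest value above 0. The result came out as whole reads for 100% of values above 0 (tolerance 0.05 reads). These totals set the precision. Genes above 0 in at least 6 of 24 mice (27286) were fitted with limma 3.58.1 in R 4.3.3 on log2(FPKM + 0.1), all 4 groups together, eBayes with trend, Benjamini-Hochberg adjustment over all genes, and differences are on that scale, which understates changes of low genes. The script was tested on simulated data without library sets, which does not show how it performs on these libraries. Single members had two-sided exact permutation tests (924 regroupings of 6 against 6 mice, or 853776 within infusion), and correlations had 100000 permutations. With voom on the recovered reads 729 and 642 genes had an unadjusted p under 0.05 and 0 and 0 an adjusted one (both AEC comparisons in the order of the text). Per the study's methods littermates shared cages and treatments were assigned at random, but the labels do not tie mice to a litter, cage or sequencing run, so p-values measure the spread between these samples. Fits were repeated with other pseudocounts, filters, groups, scalings, weights, the replicate number as a block, the library set as a term or 18 libraries alone, and each mouse left out.

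The members and all lists of genes, markers and motifs were chosen with earlier results of these data known. Named genes were the members, the 2 most abundant genes of each pathway list and those with an unadjusted p under 0.05, the 3 genes most like each member, and genes overlapping one. Python 3.11.15, pandas 2.3.3, scipy 1.17.1 and matplotlib 3.10.9 were used.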

Additional observations from a re-analysis of the deposited data

Results flagged for a closer look

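In 32 sets of 6 values (8 genes in 4 groups), a sample stood apart from the rest of its group by Dixon's criterion in 4, where chance gives about 1 in 20. Socs2 was at 0.804 FPKM in angiotensin II replicate 5, with the next mouse at 1.53, a gap of 0.896 of the group's range. Stat3 was at 5.43 FPKM in the same mouse, with the next at 6.02 (0.708 of the range). That library is one of the 6 of high total FPKM, in all of which both genes were low. Nfkbia was at 20.0 FPKM in vehicle + AEC replicate 1, with the next at 13.2 (0.646), and at 14.8 in angiotensin II + AEC replicate 5, also one of the 6, with the next at 12.1 (0.638). The cause of these gaps was not tested.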

How the results depend on the processing

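With AECs, the count of genes at an unadjusted p under 0.05 for angiotensin II + AEC against vehicle + AEC was 136 among genes of at least 1 FPKM, 1303 with array weights, 1093 with the library sets fitted and 1110 in 18 libraries, and 627 to 1247 with each mouse left out. For the AEC main effect the first 4 gave 101, 1298, 1121 and 1138. The adjusted count for angiotensin II + AEC ran from 0 to 1 with a mouse left out, the 1 without vehicle + AEC replicate 1. Members past an unadjusted p under 0.05 numbered 1 with the library sets fitted and 1 in 18 libraries, Cebpb in both (-0.23 and -0.25). Beside it stood 1093 of the 27286 genes tested in the first of these fits and 1110 genes in the second. Of the 548 other fits of the members in the tested comparisons, 493 kept direction and side and 53 changed sign, none of these with a p under 0.279. For angiotensin II + AEC against vehicle + AEC, Socs1 was -0.16 with array weights, -0.044 with the sets fitted and -0.25 in 18 libraries, Stat3 was 0.023, 0.012 and 0.039, and Socs2 was 0.039 with the sets fitted. For the AEC main effect, Stat3 was 0.000765 with median-ratio scaling, 0.023 with array weights and 0.029 in 18 libraries, and Cebpd was -0.0047 and -0.0049 in the last 2. Leaving out 1 mouse gave, for angiotensin II + AEC, -0.10 to 0.22 for Socs1, -0.21 to 0.036 for Socs2, -0.19 to 0.0043 for Cish and -0.058 to 0.037 for Stat3, and for the AEC main effect -0.079 to 0.059 for Socs2, -0.049 to 0.050 for Cish, -0.024 to 0.096 for Cebpd and -0.018 to 0.027 for Stat3. The cause was not tested. With the replicate number as a block (replicate block), 1096 genes had an unadjusted p under 0.05 for angiotensin II + AEC, and no member's call changed. The labels do not say what a number marks, and the mice were not treated as pairs. Of 36 same-numbered pairs 22 correlated above 0.1 and 14 did not (median 0.12, range -0.09 to 0.53). Between the AEC groups 4 of 6 did. A mouse correlated best with its own number in 21 of 72 cases, each a choice among the 6 mice of another group. The same-numbered pairs with r of 0.41 to 0.53 were those in which both mice were in the set of 6 libraries. All other pairs were at 0.23 or below. Whether same-numbered mice share a source of variation apart from the library sets was not tested. Depth limits Socs1 most, with 16 to 71 reads per mouse.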
